A study of Mus musculus with 8 samples.

Results

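miR-193, miR-193b and miR-365 are microRNAs (miRNAs), short RNAs that pair with messenger RNAs and lower their output. They were taken as the 3 miRNAs named mmu-miR-193, mmu-miR-193b and mmu-miR-365 on the array, of the 611 mouse miRNAs that it carried. They were chosen by name with the measured signals of these arrays, Printex 90 against control, already known, so their differences between the 2 exposure groups are given as descriptions with no test.

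The study measured lung RNA of female C57BL/6 mice (C57BL/6 Bom Tac dams) that were pregnant when exposed, on 8 arrays. The 4 Printex 90 samples came from dams that received 4 instillations of 0.067 mg into the trachea, 0.268 mg in all, given on day 7 of gestation and again on days 10, 15 and 18. Printex 90 is an industrial carbon black made of nanosized particles. The 4 vehicle control samples came from dams instilled with the nanopure water in which the particles were suspended, and all lungs were collected when the pups were weaned, 26 to 27 days after exposure. Nothing in the labels ties each array to a mouse of its own, and the spread between arrays may be partly technical. The controls lay in 1 row of the slide and the Printex 90 samples in the other, so slide row and exposure cannot be told apart.

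The genome holds these miRNAs in a pair of similar clusters, in each of which a miR-193 hairpin is followed by a miR-365 hairpin. The neighbouring hairpins of a cluster can be transcribed together and are then cut out separately. In human cells miR-193a and miR-193b are known to repress growth and survival genes such as MCL1, KIT and PLAU, and miR-365 was reported to repress IL6, an inflammatory cytokine, and NKX2-1, a lung epithelial transcription factor. In mouse, the miR-193b and miR-365 cluster has been studied in brown adipocytes, where it was reported to favour fat over muscle development in culture.

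The mature sequences show why miR-193 and miR-193b count as one seed family and miR-365 does not. They are printed 5′ to 3′ from RefSeq (GRCm38.p6) with the seed, bases 2 to 8, in capitals. All 3 array names were matched by name, miR-193 being the older name of miR-193a-3p and miR-365 that of miR-365-3p.
miR-193 (miR-193a-3p): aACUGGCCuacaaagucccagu
miR-193b (miR-193b-3p): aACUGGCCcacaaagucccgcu
miR-365 (miR-365-3p): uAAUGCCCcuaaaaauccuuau

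miR-193a-3p and miR-193b-3p had the seed ACUGGCC, which no other mouse miRNA of the RefSeq table shared, and miR-365-3p alone had the seed AAUGCCC. Of 22 positions, miR-193a-3p and miR-193b-3p were identical at 19 (86.4%). The 3 substitutions from miR-193a-3p to miR-193b-3p were U9C, A20G and G21C, with positions counted from 1 at the 5′ end, all outside the seed. The files hold no probe sequences, so how far probes for miR-193 and miR-193b bind each other's target is unknown.

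The 4 hairpins are shown with the mature strand measured by the array in capitals, because miR-365 has the same mature sequence in both clusters.
Mir193a: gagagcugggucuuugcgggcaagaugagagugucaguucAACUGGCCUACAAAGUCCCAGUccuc
Mir365-2: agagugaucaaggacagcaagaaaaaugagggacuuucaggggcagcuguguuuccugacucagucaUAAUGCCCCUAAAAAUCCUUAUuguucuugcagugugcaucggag
Mir193b: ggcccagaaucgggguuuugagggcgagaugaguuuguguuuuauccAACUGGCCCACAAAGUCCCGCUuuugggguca
Mir365-1: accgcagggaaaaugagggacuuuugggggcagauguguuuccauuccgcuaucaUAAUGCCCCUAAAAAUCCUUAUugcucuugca

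On chromosome 11 of GRCm38.p6, plus strand, Mir193a lies at chr11:79711969-79712034 and Mir365-2 at chr11:79726400-79726511, with 14365 bases between them. That stretch lies between genes in the annotation, with Rab11fip4 ending 13952 bases before it and Utp6 207444 bases after it as the nearest coding genes. On chromosome 16, plus strand, Mir193b lies at chr16:13449523-13449601 and Mir365-1 at chr16:13453840-13453926, only 4238 bases apart. Both lie within the annotated long noncoding RNAs Gm32817 and Gm53058, with the coding genes Mrtfb 31993 bases before and Parn 84037 bases after. By its annotated sequence miR-193 comes from the chromosome 11 cluster and miR-193b from the chromosome 16 cluster, while miR-365 can come from either. Whether the probes keep miR-193 and miR-193b apart was not tested.

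All 3 miRNAs were measured on every array. Each had 2 probes with 8 to 10 usable spots per probe and array, and every one of the 152 usable spots of miR-193, 156 of miR-193b and 150 of miR-365 was well above background. Background-subtracted probe intensities spanned 73.2 to 426.9 for miR-193, 19.4 to 45.7 for miR-193b and 312.2 to 521.0 for miR-365, beside a local background of 17 to 21.8. miR-193b was thus read close to its background, and its spots of 1 probe scattered with a median coefficient of variation of 9.40%, against 3.48% for miR-193 and 3.21% for miR-365. The detection criterion was also met by 3 or 4 of the array's 39 herpesvirus miRNAs on each array. Of these mghv-miR-M1-2 had relative signals between 0.204 and 0.270 over the 8 arrays, with r = 0.66 to miR-193b after subtracting group means. Another, mcmv-miR-M23-1-5p, was also detected on all 8 arrays, with 0.118 to 0.161 and r = -0.63 to miR-193b. The 2 probes of a miRNA followed each other over the 8 arrays, with r of 0.97 for miR-193 and 1.00 for both miR-193b and miR-365. Values below are relative signals, the summed probes of a miRNA divided by the array's own 75th percentile, taken across those 240 mouse miRNAs that every array detected.

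miR-193, whose annotated hairpin is on chromosome 11, had a lower mean signal after Printex 90. Its relative signals were 0.462, 0.604, 0.524 and 0.566 on Printex 90 arrays 1 to 4, against 0.581, 0.598, 0.676 and 0.708 on control arrays 1 to 4. Printex 90 arrays 1, 3 and 4 lay below all controls, and Printex 90 array 2 lay above control arrays 1 and 2, so the groups overlapped. The means were 0.539 ± 0.0609 after Printex 90 and 0.641 ± 0.0611 in controls (SD, n = 4 arrays each). From the log2 means the fold was 0.840, with a 95% interval of 0.711 to 0.991. On the log2 scale the difference, Printex 90 minus control, was -0.25 (SE 0.101). The interval stopped just short of no difference and is no test, and in 12 of 20 other fits (other scaling, background or summary, or an array left out) it included no difference. In order of log2 difference miR-193 was the 9th lowest of the 268 mouse miRNAs tested. Both probes gave nearly the same difference, -0.24 and -0.26. In bulk lung RNA, fewer cells of a type and less of the miRNA per cell cannot be told apart.

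miR-193b, its paralog with the same seed, did not show a lower mean. Its relative signals were 0.126, 0.0639, 0.0862 and 0.0646 on Printex 90 arrays 1 to 4, against 0.0729, 0.0796, 0.0904 and 0.0594 on control arrays 1 to 4. Printex 90 array 1 was the highest of all, and apart from it both groups covered about the same range. The means were 0.0853 ± 0.0292 after Printex 90 and 0.0756 ± 0.0130 in controls. From the log2 means the fold was 1.10, with a 95% interval of 0.734 to 1.64. The log2 difference was 0.13 (SE 0.245), and it was -0.08 without Printex 90 array 1, so its sign rested on that array.

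miR-365, the member that both clusters encode, differed little. Its relative signals were 1.07, 1.08, 1.19 and 1.00 on Printex 90 arrays 1 to 4, against 1.09, 1.06, 1.20 and 1.22 on control arrays 1 to 4. The groups overlapped, with Printex 90 array 3 beside the 2 higher controls. The means were 1.09 ± 0.0792 after Printex 90 and 1.14 ± 0.0773 in controls. From the log2 means the fold was 0.951, with a 95% interval of 0.850 to 1.06. The log2 difference was -0.07 (SE 0.0682). In this fit an increase of more than 1.06-fold or a decrease beyond 0.850-fold lay outside its interval. Some other fits gave wider log2 intervals, up to 0.23 with scaling over all mouse miRNAs and down to -0.42 without scaling. All 20 other fits included no difference.

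**Figure D1:**
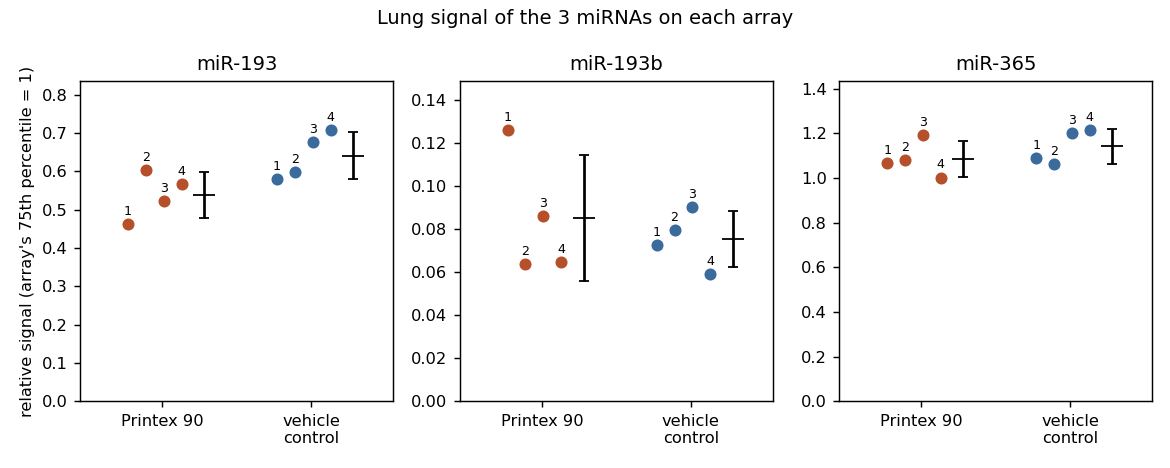
Relative signal of miR-193, miR-193b and miR-365 on each array (y axis, in units of the array's 75th percentile, from 0 and with its own scale per miRNA), with Printex 90 arrays left of vehicle control arrays, numbered by replicate. The crosses and bars are the mean ± SD of 4 arrays. For miR-193, 3 Printex 90 points lie below all controls; miR-193b has 1 high point, Printex 90 array 1, at 0.126; miR-365 lies between 1.00 and 1.22 on all 8 arrays.

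With limma and Benjamini-Hochberg adjustment, 0 of the 268 tested miRNAs (0%) passed an adjusted p of 0.05, and the smallest adjusted p was 0.203. At an unadjusted p under 0.05 there were 15 (5.6%). Groups that did not overlap were found for 4 of the 268 (1.49%) and for 0 of the 3 members. A lower mean after Printex 90 was found for 2 of the 3 members, miR-193 and miR-365, and for 176 of the 268 (65.7%). The median log2 difference of all tested miRNAs was -0.05, and 90% of them lay between -0.22 and 0.17. miR-193 lay below that span, and miR-193b and miR-365 inside it.

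**Figure D2:**
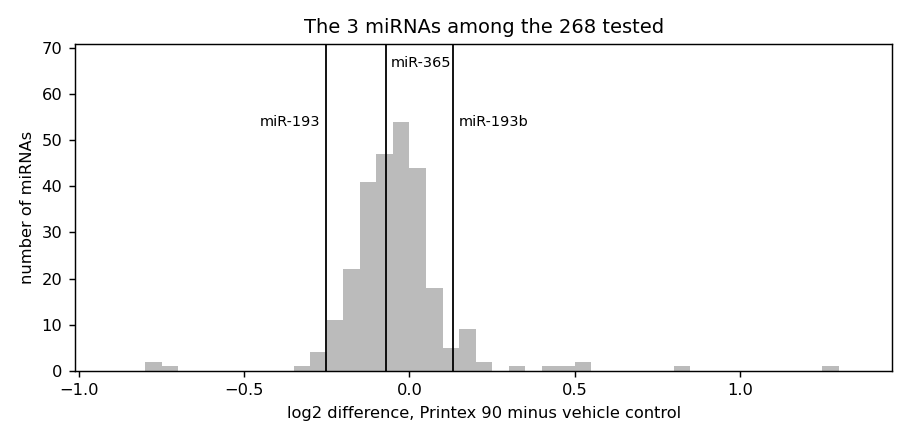
Number of miRNAs (y axis) by log2 difference in relative signal, Printex 90 minus vehicle control (x axis, bins of equal width), for the 268 tested miRNAs. The vertical lines mark miR-193 at -0.25, in the lower tail, miR-365 at -0.07, near the median of -0.05, and miR-193b at 0.13, on the upper side.

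The 3 miRNAs also varied to different degrees between arrays of one group. After the group means were subtracted, the SD over arrays was 0.37 log2 units for miR-193b, larger than that of 95.4% of the 240 miRNAs detected on all arrays. It was 0.15 for miR-193, larger than 62.5% of them, and 0.10 for miR-365, larger than 35%. The median of the 240 was 0.12. From its lowest to its highest array miR-193b spanned 2.13-fold, miR-193 1.53-fold and miR-365 1.21-fold, beside a median of 1.31-fold. The part that the low signal of miR-193b has in its spread was not tested.

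Whether cluster partners and paralogs moved together between arrays does not use the contrast that entered the choice of members, so it was tested. Pearson's r was taken over the 8 arrays after subtracting each group's mean, with a 2-sided exact permutation of arrays within groups (576 orders) and adjustment over the 3 pairs. The cluster partners miR-193 and miR-365 had r = 0.32 (exact p = 0.458, adjusted p = 0.688) and Spearman's rho = 0.38 (exact p = 0.424, adjusted p = 0.635). The cluster partners miR-193b and miR-365 had r = 0.07 (exact p = 0.880, adjusted p = 0.880) and rho = 0.10 (exact p = 0.878, adjusted p = 0.878). The paralogs miR-193 and miR-193b had r = -0.75 (exact p = 0.0608, adjusted p = 0.182) and rho = -0.64 (exact p = 0.122, adjusted p = 0.365). None of the 3 pairs passed an adjusted p of 0.05. Neither joint nor opposed movement was thus shown, and 8 arrays leave room for either. These r join the 2 groups, and r within each group is given beside them. For miR-193 with miR-365, r was -0.16 within the Printex 90 arrays and 0.95 within the controls. For miR-193b with miR-365 it was 0.24 within Printex 90 and -0.24 within controls. For the paralogs it was -0.98 within Printex 90 and -0.29 within controls. Each group holds few arrays, and whether r differs between the groups was not tested.

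Without the 2 arrays farthest from the median of the pair's first miRNA, r was 0.21 for miR-193 with miR-365, 0.26 for miR-193b with miR-365 and -0.64 for miR-193 with miR-193b. Without Printex 90 array 1 alone, where miR-193b was highest and miR-193 lowest, r of the paralogs was -0.49. The pair of miR-193 and miR-365 depended on the scaling: without scaling between arrays its r was 0.85 (exact permutation, adjusted p = 0.0104). Unscaled signals of an array share its overall brightness, whose 75th percentile ran from 580.8 to 804.7 intensity units. That r therefore cannot separate joint movement of the partners from shared brightness. The paralogs passed the threshold with another background correction, normexp, at r = -0.85 (exact permutation, adjusted p = 0.0365). Over their alternatives the adjusted p of the exact permutation ran from 0.0104 to 0.910 for miR-193 with miR-365 and from 0.0365 to 0.597 for miR-193 with miR-193b.

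As a description over the other 239 miRNAs detected on all arrays, miR-365 came 46th in order of r to miR-193 and 130th in order of r to miR-193b. miR-193b came 229th for miR-193, near the end of that order. All 28680 pairs among the 240 miRNAs had a median r of 0.16, with quartiles of -0.27 and 0.57.

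Ratios within an array, which need no scaling between arrays, were taken for each sample. The log2 ratio of miR-193 over miR-365, with the control mean set to 0, was -0.37, -0.01, -0.35 and 0.01 on Printex 90 arrays 1 to 4 and lay between -0.07 and 0.06 on the controls. Printex 90 arrays 1 and 3 thus lay below every control, and arrays 2 and 4 among them. For miR-193b over miR-365 the log2 ratio was 0.85, -0.15, 0.14 and -0.02 on Printex 90 arrays 1 to 4, against 0.03, 0.19, 0.20 and -0.42 on control arrays 1 to 4. Only Printex 90 array 1 stood outside the controls. For the paralogs, miR-193 over miR-193b, the log2 ratio was -1.23, 0.14, -0.49 and 0.04 on Printex 90 arrays 1 to 4, against -0.10, -0.19, -0.19 and 0.48 on control arrays 1 to 4. Printex 90 arrays 1 and 3 again lay below every control. These ratios carry the same group difference that entered the choice of members and were not tested.

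**Figure D3:**
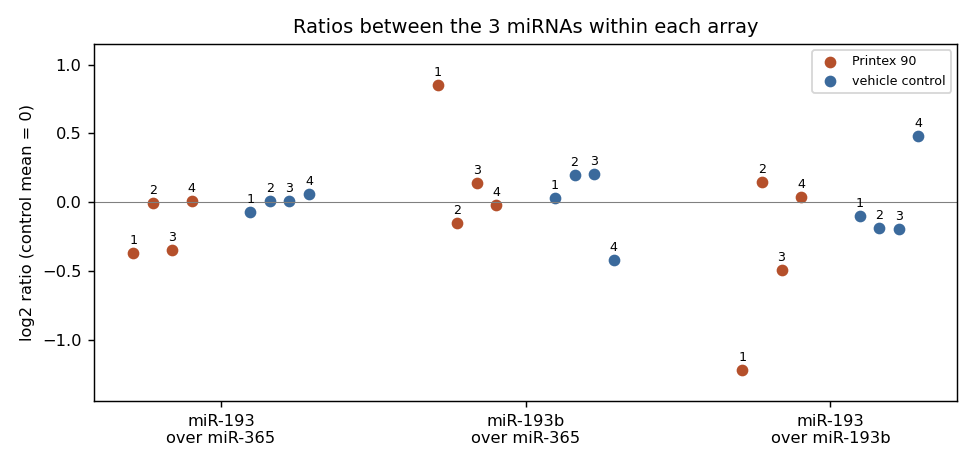
Log2 ratio of relative signals within each array (y axis, mean of the vehicle controls set to 0) for miR-193 over miR-365, miR-193b over miR-365 and miR-193 over miR-193b, with Printex 90 arrays left of vehicle control arrays and points numbered by replicate. Printex 90 array 1 lies farthest from 0 in all 3 ratios, at -0.37, 0.85 and -1.23.

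The miRNAs whose signals were most like each member over the 8 arrays were found by Pearson's r after subtracting group means, and the 5 highest of 239 are given as a description with no p. They were miR-143 (r = 0.99), miR-145 (0.99), miR-140* (0.94), miR-1 (0.94) and miR-133b (0.94) for miR-193b. miR-143 and miR-145 are known as smooth muscle miRNAs, and miR-1 and miR-133b as striated muscle miRNAs.

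miR-143 had relative signals of 2.73, 1.71, 2.11 and 1.75 on Printex 90 arrays 1 to 4, against 1.99, 2.25, 2.36 and 1.85 on control arrays 1 to 4. Within each group its arrays stood in the same order as those of miR-193b. miR-145 had 0.538, 0.307, 0.378 and 0.312 on Printex 90 arrays 1 to 4, against 0.397, 0.451, 0.448 and 0.338 on control arrays 1 to 4. miR-1, abundant in heart and skeletal muscle, had 1.55, 0.131, 0.208 and 0.180 on Printex 90 arrays 1 to 4, against 0.482, 0.941, 0.832 and 0.171 on control arrays 1 to 4. Printex 90 array 1 was the highest and control array 4 the lowest of its group for miR-193b, miR-143, miR-145 and miR-1 alike. Without Printex 90 array 1, r of miR-193b was 0.98 with miR-143, 0.97 with miR-145, 0.83 with miR-1 and 0.82 with miR-133b. Only 2 of the 5, miR-143 and miR-145, were then still among the 5 nearest, and miR-34b-5p, miR-34c* and miR-375 took the other places.

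**Figure D4:**
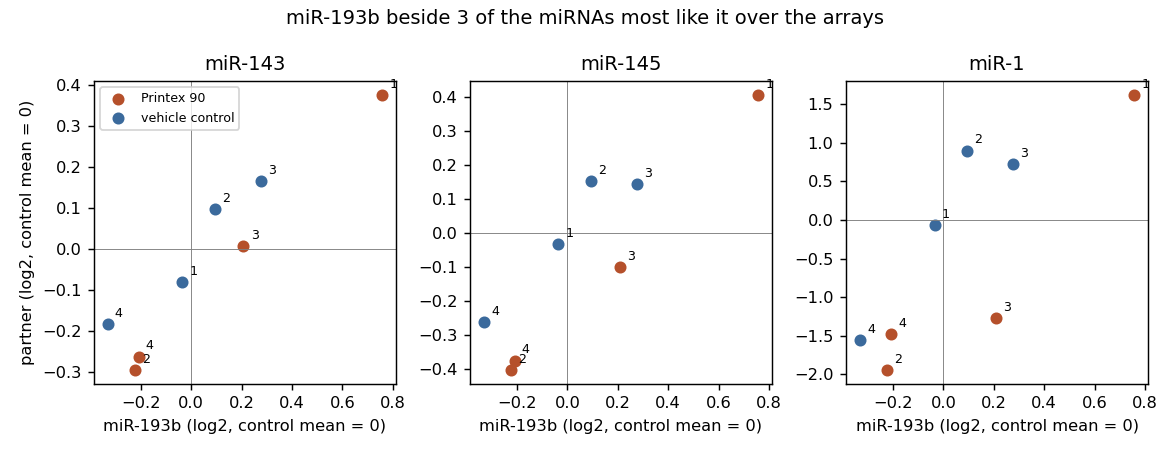
Log2 relative signal of miR-143, miR-145 and miR-1 (y axes, control mean set to 0, a scale for each) against that of miR-193b (x axis, control mean set to 0) on each array, with Printex 90 and vehicle control arrays in separate colours and numbered by replicate. Printex 90 array 1 is at the upper right in each panel; arrays higher in miR-193b are mostly higher in the other miRNA within each group.

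The fixed lists of cell type markers were set beside the members in the same way. miR-193b followed the summed signal of the striated muscle list (r = 0.93), the smooth muscle and mesenchymal list (r = 0.90) and the multiciliated list (r = 0.77). In the smooth muscle and mesenchymal list only part of the members took part, since r to miR-193b was -0.19 for miR-199a-3p, -0.47 for miR-199a-5p and 0.07 for miR-214. The summed striated muscle signal was 3.06, 0.319, 0.449 and 0.405 on Printex 90 arrays 1 to 4, against 0.987, 1.92, 1.71 and 0.391 on control arrays 1 to 4. Of the 7 listed striated muscle miRNAs 4 were tested and 3, miR-208a, miR-208b and miR-499, were detected on no array. miR-193b also ran against the arrays' unscaled 75th percentile intensity (r = -0.73), while miR-193 had r = 0.58 and miR-365 r = -0.11 with it. The part that overall brightness has in the r of the paralogs was not tested. How much of the spread of miR-193b goes with muscle content or with overall brightness was not tested.

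The 5 miRNAs most like miR-193 were miR-362-3p (r = 0.89), miR-219 (0.88), miR-322 (0.85), miR-350 (0.84) and miR-128 (0.81). Those most like miR-365 were miR-338-3p (0.88), miR-29c (0.86), miR-101a (0.83), miR-10a (0.82) and miR-29c* (0.81). All 3 sets of neighbours depended on the processing. With values from the authors' deposited table, 0 of the 5 remained among the 5 nearest for miR-193, 4 for miR-193b and 1 for miR-365. With quantile normalization 4 remained for miR-193, 3 for miR-193b and 1 for miR-365, without scaling 4 for each member, and without Printex 90 array 1 4 for miR-193, 2 for miR-193b and 4 for miR-365. With normexp, r of miR-193 to miR-128 was -0.19.

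The passenger strands, the hairpin arms usually discarded, added nothing measurable. Of 5 listed names the array carried 1, miR-193*, the other arm of the chromosome 11 hairpin. Its 4 probes were detected on 0 of 4 Printex 90 arrays and 0 of 4 control arrays, and none of its 159 usable spots was well above background. The arm of the chromosome 16 miR-193b hairpin and the passenger arms of miR-365 were not measured, so the chromosome 11 and 16 sources of miR-365 could not be separated through them.

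The other miRNAs reported in brown adipocytes, the cell type in which the miR-193b and miR-365 cluster has been studied in mouse, were taken from a list of 18 names, all on the array. Of these 16 were tested and 0 passed an adjusted p of 0.05 with limma. 5 had a higher and 10 a lower mean after Printex 90, 1 was at the floor in both groups, and the median log2 difference was -0.06, beside -0.05 for all tested miRNAs. miR-455 and miR-378, both reported to promote brown fat development, had log2 differences of -0.10 (SE 0.105) and 0.08 (SE 0.173). miR-27a and miR-27b, reported to restrain it, had -0.11 (SE 0.0684) and -0.06 (SE 0.0310). miR-155, also a leukocyte miRNA, had 0.50 (SE 0.194, limma adjusted p = 0.706), and miR-133a, also a striated muscle miRNA, had -0.75 (SE 0.905). miR-455* and miR-196a were detected on no array. Markers were set beside the lung label, though they cannot single out lung. The endothelial miR-126-3p had 37.9 ± 3.53 after Printex 90 and 40.6 ± 2.62 in controls. The summed epithelial list had 7.84 to 9.44 after Printex 90 and 7.52 to 8.41 in controls, and the summed multiciliated list 4.96 to 7.72 and 4.19 to 6.45. Of the 4 neural markers miR-124 and miR-9 were detected on no array. The other neural markers were detected, miR-128 on 4 Printex 90 and 4 control arrays (0.0654 ± 0.00368 and 0.0638 ± 0.000857) and miR-129-3p on 3 Printex 90 and 4 control arrays (0.0365 ± 0.00784 and 0.0339 ± 0.00475).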

How the data were processed

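Lung RNA of 4 Printex 90 and 4 vehicle control samples was measured on 1-colour (Cy3) Agilent miRNA arrays. Per the labels' protocols, small-RNA-enriched total RNA came from a miRvana kit and was labelled with an Agilent miRNA kit. Per the file headers, spot intensity values came from Feature Extraction 10.7.3.1 (grid design 021828), background-subtracted within each array and not normalized between arrays. A value table that the authors deposited is on the log2 scale. Its columns correlated above 0.999 with the log2 median spot signals, so its direction is plain, and column medians were 5.43, 5.43, 5.41 and 5.43 for Printex 90 arrays 1 to 4 and 5.43, 5.41, 5.42 and 5.42 for control arrays 1 to 4. The sources used here do not name its normalization between arrays, and it served only as an alternative.

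Control and outlier-flagged spots (2.25% to 2.76% of 13000 per array) were left out, and 0 spots were saturated. Mean probe signals were summed per miRNA. Detection on an array required 1 probe with 50% or more of its usable spots well above background (248 to 283 mouse miRNAs per array). Signals were divided by the 75th percentile of the 240 mouse miRNAs that every array detected (580.8 to 804.7 intensity units), floored at 0.0388 and put on the log2 scale. The 268 mouse miRNAs with detection on 4 or more arrays were fitted with limma 3.58.1 (R 4.3.3), which added 1.02 prior degrees of freedom, with Benjamini-Hochberg adjustment. Standard errors and 95% intervals come from that fit. Precision is limited by the number of arrays.

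The members and lists were chosen with earlier results of these data known. Named miRNAs were the 3 members, their passenger strands, miRNAs with the same seed, the 5 nearest by r to each member, the first 6 tested of the brown adipocyte list, and markers whose level stands beside a result. Sequences and positions are RefSeq's, GRCm38.p6. The files name no build. Replicate numbers were not used to pair the samples in the reported fit. Alternatives covered scaling, background (normexp with an offset of 50, on the median signal because the files hold no mean signal), probe summary, floor, detection filter, spread model, the replicate block, the value table and leaving out each array. The fit and the correlation test were tested on simulated data.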

Additional observations from a re-analysis of the deposited data

How the results depend on the processing

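The log2 differences of the 3 members moved by less than the spread between replicates under all 18 alternatives tried for each. Not all of these could move them, since the replicate block and the intensity trend leave a log2 difference as it was. Doubling the floor changed only that of miR-193b, to 0.15, by replacing some of its lower values. The limit set by the spread is loose for miR-193b and miR-365. Their spreads of 0.37 and 0.10 exceed the size of their differences, 0.13 and -0.07, so a lost or reversed difference could stay within it. They ran from -0.32 (no scaling) to -0.14 (normexp) for miR-193, from -0.08 to 0.25 for miR-193b, where leaving out Printex 90 replicate 1 turned the sign, and from -0.14 (no scaling) to -0.01 (value table) for miR-365. Leaving out 1 array at a time gave -0.31 to -0.18 for miR-193, -0.08 to 0.25 for miR-193b and -0.12 to -0.04 for miR-365. The count past an adjusted p of 0.05 was 0 in 19 of 20 alternatives. It was 3 without Printex 90 replicate 3 (miR-135b, miR-146b and miR-21, named here after their values were seen, none of them a member), so the range without 1 array was 0 to 3. The correlation of miR-193 with miR-365 was 0.85 without scaling between arrays, and that of miR-193 with miR-193b was -0.85 with normexp, both then past the threshold. The value without scaling includes the brightness that signals of an array share, so it does not show joint movement of miR-193 and miR-365. Leaving out 1 array gave 0.15 to 0.54, and -0.92 to -0.49 for the paralogs. The correlation of miR-193b with miR-365 changed sign in 6 of 17 alternatives (-0.34 to 0.31). Same-numbered samples of the groups deviated with correlations of -0.13, -0.38, -0.47 and 0.44. Of the Printex 90 samples only number 4 was most like the control of its own number. Pairing by number was thus not seen, but these few correlations cannot exclude it. With the replicate block 0 miRNAs passed. The log2 differences stayed at -0.25, 0.13 and -0.07, because each replicate number has 1 sample per group. Only their precision could change. Without the detection filter 611 miRNAs were tested. miR-193b, at 19.4 to 45.7 intensity units per probe over a background of 17 to 21.3, is the value most limited by signal, and its interval of 0.734- to 1.64-fold leaves a change of either direction possible.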

Other observations

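Between arrays of one group, miR-193 ran against the summed muscle and multiciliated lists that miR-193b followed. miR-365 had its larger r with other lists. These are descriptions over 8 arrays with group means subtracted. miR-193 had r = -0.83 with the summed smooth muscle and mesenchymal list, -0.77 with the striated muscle list, -0.57 with the multiciliated list and 0.54 with the endothelial list. In the smooth muscle and mesenchymal list r to miR-193 was -0.73 for miR-143 and -0.80 for miR-145, but -0.20 for miR-199a-3p, 0.18 for miR-199a-5p and -0.20 for miR-214. In the endothelial list it was 0.53 for miR-126-3p and 0.79 for its passenger strand miR-126-5p. miR-365 had r = 0.71 with the summed endothelial list, which miR-126-3p leads, with 0.71 for miR-126-3p and 0.43 for miR-126-5p. It had r = 0.61 with the summed brown adipocyte list, which miR-26a leads, and 0.04 with the summed leukocyte list. The members of the brown adipocyte list did not go one way. Their r to miR-365 ran from -0.78 for miR-155 to 0.60 for miR-26a, with -0.29 for miR-378, -0.17 for miR-455 and 0.56 for miR-27a. With the liver list, which holds only miR-122, r was -0.73, and miR-122 was detected on 3 Printex 90 and 4 control arrays. That r was taken without the floor of 0.0388. miR-122 lay under it on Printex 90 array 3 (0.0172) and control array 4 (0.0269), where miR-365 was highest in its group. The members of the leukocyte list did not go one way, with r to miR-365 of -0.78 for miR-155, -0.55 for miR-142-5p, -0.54 for miR-150, -0.49 for miR-142-3p and 0.58 for miR-223. Of the brown adipocyte list, miR-378 (r = 0.90) and miR-133a (r = 0.93) followed miR-193b, while miR-106b ran against it (r = -0.83) and miR-455 had r = -0.20. miR-449a, a multiciliated cell miRNA, had r = 0.93 with miR-193b and averaged 0.287 ± 0.108 after Printex 90 and 0.227 ± 0.0760 in controls (SD, n = 4 arrays each).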
